A study of Mus musculus with 12 samples.

Results

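The Slam family receptors were examined on 12 Affymetrix Mouse Gene ST arrays of RNA from pro-B cells purified from bone marrow of mice in SPF (specific pathogen-free) housing at an age of 1 month. Members were the transcript clusters whose platform symbol was Slamf1, Cd48, Cd84, Cd244a, Ly9, Slamf6, Slamf7, Slamf8 or Slamf9, with the cluster of the highest mean taken for each gene. All 9 were found, each with a single cluster, among 19938 genes named by a cluster with 1 symbol. The 3 groups of 4 arrays were Cd72+/-;Pax5+/- (1 copy each of Cd72 and Pax5 lost), Pax5+/- (1 copy of Pax5 lost) and WT. The titles name the mutant cells preleukemic precursors of the B lineage, while the WT cells are named as pro-B cells, and the series title sets the loss of Pax5 together with Cd72 as a driver of B-cell leukemia. The labels give neither the strain nor the gate of the purification, nor whether each array stands for its own animal. Errors and p-values hence cover array-to-array spread alone, which can be technical. The family was chosen by measured values, namely the log2 changes of its members between these groups, with results of these data known. The members' differences are therefore given as descriptions, with intervals but no printed p-values. A member's call says only that its adjusted p lay under 0.05, and neither a call nor its loss counts as support. The count of members past a threshold supports nothing about the family.

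Slam receptors are cell-surface proteins of the immunoglobulin superfamily on blood cells. Most bind the same receptor on a neighbouring cell, while Cd48 and Cd244a bind each other. The tails of most members carry tyrosine motifs that recruit the small adaptors SAP (Sh2d1a) and EAT-2 (Sh2d1b1) or phosphatases, whereas Cd48 is held by a lipid anchor and Slamf8 and Slamf9 have short tails without these motifs. In bone marrow, Slamf1 (CD150) and Cd48 are used to separate stem cells from progenitors, and Slamf7 is known from plasma cells and NK cells. The genes lie together on mouse chromosome 1, in an interval known to differ in sequence between inbred strains.

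Changes over 2-fold in at least 1 comparison were seen in 4 members, Slamf6, Slamf7, Cd48 and Cd84. Their RefSeq promoter windows (assembly GRCm38.p6, 250 bases before to 50 after the start, read along the gene) are shown because these receptors carry the differences described here. Capitals mark matches on either strand to 4 motifs of lymphoid factors: the E-protein E-box CAGNTG, the ETS motif AGGAAG, the RUNX motif TGTGGT and the EBF core CCCNNGGG.
Slamf6, chr1:171917212-171917511, + strand: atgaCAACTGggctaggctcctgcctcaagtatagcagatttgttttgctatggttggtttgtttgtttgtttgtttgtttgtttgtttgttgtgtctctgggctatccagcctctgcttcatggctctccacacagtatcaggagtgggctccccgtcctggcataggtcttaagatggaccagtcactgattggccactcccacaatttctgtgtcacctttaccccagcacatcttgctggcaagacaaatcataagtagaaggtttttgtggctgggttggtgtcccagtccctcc
Slamf7, chr1:171648950-171649249, - strand: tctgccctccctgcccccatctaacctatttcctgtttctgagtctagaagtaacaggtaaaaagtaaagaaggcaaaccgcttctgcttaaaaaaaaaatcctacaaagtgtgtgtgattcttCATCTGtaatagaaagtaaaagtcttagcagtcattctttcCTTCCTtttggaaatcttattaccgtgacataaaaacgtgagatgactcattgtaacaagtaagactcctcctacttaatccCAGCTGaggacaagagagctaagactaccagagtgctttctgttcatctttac
Cd48, chr1:171681742-171682041, + strand: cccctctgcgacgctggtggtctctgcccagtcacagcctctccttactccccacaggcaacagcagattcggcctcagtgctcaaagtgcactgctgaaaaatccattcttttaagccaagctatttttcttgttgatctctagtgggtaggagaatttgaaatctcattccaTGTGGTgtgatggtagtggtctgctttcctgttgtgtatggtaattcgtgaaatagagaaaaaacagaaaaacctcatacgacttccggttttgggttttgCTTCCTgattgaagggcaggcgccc
Cd84, chr1:171839447-171839746, + strand: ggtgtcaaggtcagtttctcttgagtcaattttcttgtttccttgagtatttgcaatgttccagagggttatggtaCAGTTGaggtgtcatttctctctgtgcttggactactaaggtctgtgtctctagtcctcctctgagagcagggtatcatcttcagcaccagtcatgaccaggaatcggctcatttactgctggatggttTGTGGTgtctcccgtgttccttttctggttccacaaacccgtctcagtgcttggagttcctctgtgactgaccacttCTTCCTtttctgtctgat

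A match describes letters only and not binding. The E-box matched 1 time in Slamf6, 2 times in Slamf7, 1 time in Cd84 and 0 times in Cd48. The RUNX motif matched 1 time each in Cd48 and Cd84 and 0 times in Slamf6 and Slamf7. Slamf7, Cd48 and Cd84 each held 1 ETS match, and the EBF core was in none of these 4 windows. Among 32851 promoter windows of the same length, 51.4% held the E-box, 35.4% the ETS motif, 16.8% the RUNX motif and 13.7% the EBF core. Windows were matched for 8 of the 9 members.

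The arrays had medians of 6.91 to 7.005 and lower quartiles of 5.57 to 5.64 on the log2 scale. Xist, made from the inactive X of females, read 11.75 to 11.90 on the Cd72+/-;Pax5+/- arrays, 5.00 to 5.38 on the Pax5+/- arrays and 5.09 to 5.52 on the WT arrays, and the Y-linked gene Uty ran the opposite way. Every comparison with Cd72+/-;Pax5+/- is thus also one between sexes, and genotype and sex cannot be told apart. Cd72 averaged 7.51 ± 0.135, 10.19 ± 0.111 and 8.90 ± 0.51 in Cd72+/-;Pax5+/-, Pax5+/- and WT (SD, n = 4 each). Pax5 averaged 11.21 ± 0.0835, 10.97 ± 0.26 and 11.57 ± 0.148, and its change from WT was called in Pax5+/- (-0.60, limma adjusted p = 0.0051) but not in the mice with both losses (-0.36, adjusted p = 0.0781). The WT arrays stood in 2 pairs: over all tested clusters the SD of the difference was 0.109 between replicates 1 and 3 and 0.117 between 2 and 4, against 0.27 to 0.28 across the pairs. The pair of WT replicates 1 and 3 lay wholly above the pair of WT replicates 2 and 4 in 6 of the 9 members (Slamf1, Cd48, Cd84, Cd244a, Slamf6 and Slamf7), by 0.185 for Slamf1 up to 1.035 for Cd84. The closest pairs of Pax5+/- arrays were 1 with 3 and 2 with 4 (SD 0.177 and 0.122, against 0.195 to 0.281 across the pairs). Those of Cd72+/-;Pax5+/- were 1 with 2 and 3 with 4 (SD 0.117 and 0.125). Across these Cd72+/-;Pax5+/- pairs the SD was 0.128 to 0.183, so no split as wide as that of WT was seen. Any 4 arrays have a closest pairing, so the pairing alone shows no split.

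The family showed different patterns over the 3 genotypes. Slamf6 and Slamf7 were high in the mice that had lost a copy of both genes, above every array of the other 2 groups. Cd48 and Cd84 were low in Pax5+/-, Cd244a was highest in Pax5+/-, and Ly9, Slamf8 and Slamf1 differed by under 0.3. In the fit over all 23410 clusters with a symbol, 4 members were called higher in Cd72+/-;Pax5+/- against WT and 0 lower, beside 4.12% of all clusters higher and 3.66% lower. In Pax5+/- against WT 1 member was called higher and 3 lower, beside 4.28% higher and 3.2% lower. In Cd72+/-;Pax5+/- against Pax5+/- 5 were called higher and 1 lower, beside 4.44% and 5.35%. Called with a change over 2-fold were 2, 2 and 4 members in the order of these comparisons, beside 0.842%, 0.94% and 1.12% of all clusters. The arrays of both groups were fully separated, with no overlap, in 6, 4 and 6 members, beside 14.8%, 10.7% and 18.5% of all clusters. The median absolute log2 change of the 9 members was 0.363, 0.235 and 0.593, beside 0.07, 0.0675 and 0.075 over all clusters. Because the members were chosen for their changes, counts and medians above those of all clusters are no result. Both comparisons with WT share the same 4 WT arrays.

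**Figure D1:**
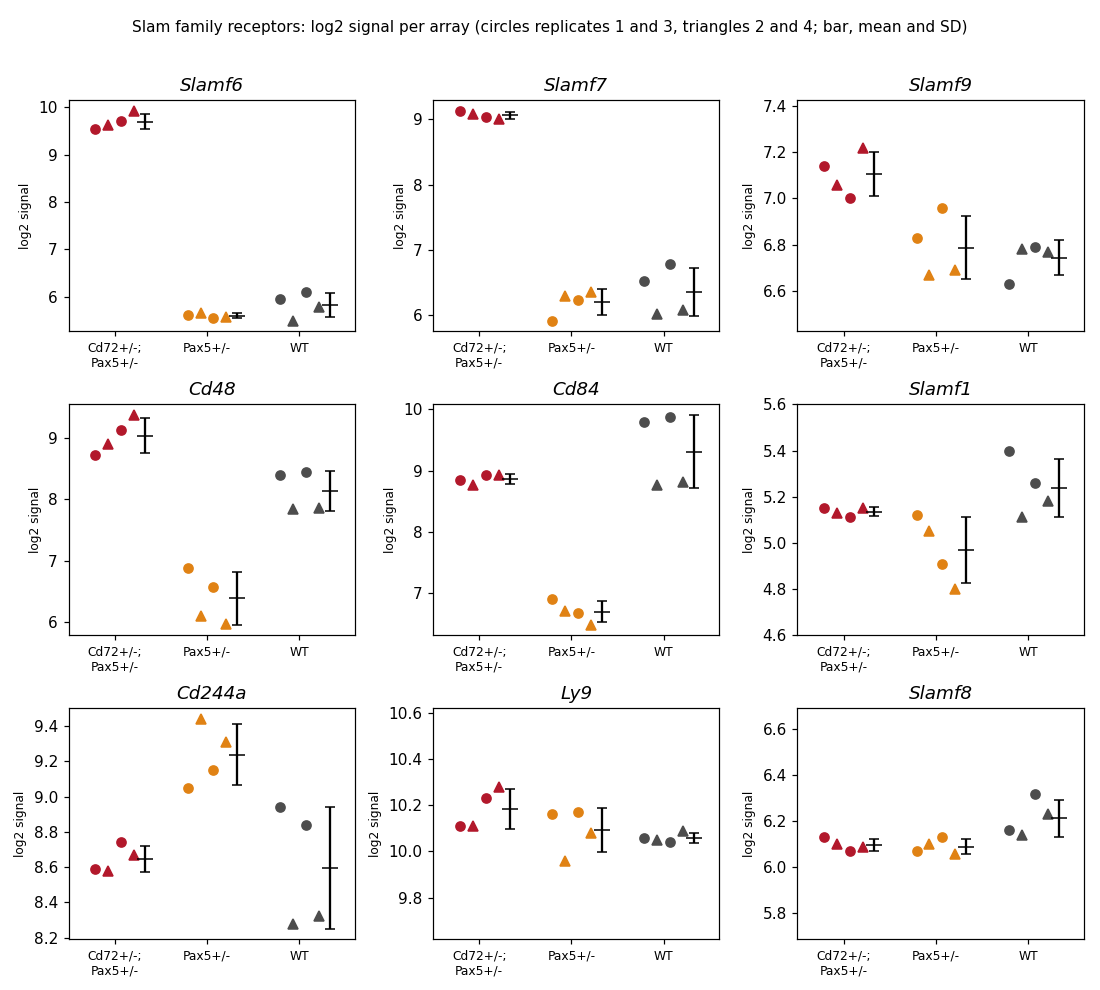
Log2 signal of each Slam receptor on each array (y axis, scaled per gene and not starting at 0), for Cd72+/-;Pax5+/-, Pax5+/- and WT from left to right, with the mean and SD of the 4 arrays beside the points. Slamf6 and Slamf7 sit above 9 on every Cd72+/-;Pax5+/- array, and WT circles (replicates 1 and 3) sit above WT triangles (replicates 2 and 4) in 6 panels.

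Slamf6 (Ly108), a homophilic receptor of lymphocytes that signals through SAP, had the widest range of group means among the members. It read 9.53, 9.63, 9.71 and 9.92 in Cd72+/-;Pax5+/-, against 5.61, 5.67, 5.55 and 5.57 in Pax5+/- and 5.95, 5.50, 6.10 and 5.79 in WT. All 4 Cd72+/-;Pax5+/- arrays lay above every other array, and the Pax5+/- and WT arrays overlapped near the lower quartile of the arrays and near the 5.00 to 5.52 that Xist read on the Pax5+/- and WT arrays. The level was 14.5-fold higher in Cd72+/-;Pax5+/- than in WT (log2 change 3.86, SE 0.114, 95% interval 3.62 to 4.11) and 17.1-fold higher than in Pax5+/- (log2 change 4.10, 95% interval 3.85 to 4.34). These folds are as measured on the arrays. Because the Pax5+/- and WT readings lie so near the dim end, the folds and their intervals may understate the difference in RNA. Between Pax5+/- and WT the change was -0.24 (95% interval -0.48 to 0.01). In RNA of purified cells, more cells that express a gene and more RNA per cell cannot be told apart, here and for each gene below.

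Slamf7 (CRACC), the receptor of plasma cells and NK cells that couples to EAT-2, had the same order. It read 9.13, 9.08, 9.03 and 9.01 in Cd72+/-;Pax5+/-, against 5.92, 6.30, 6.24 and 6.36 in Pax5+/- and 6.52, 6.02, 6.79 and 6.08 in WT. The Cd72+/-;Pax5+/- arrays spanned 0.12 and stood above all others, while Pax5+/- and WT overlapped. Its level was 6.54-fold higher than in WT (log2 change 2.71, SE 0.151, 95% interval 2.38 to 3.04) and 7.25-fold higher than in Pax5+/- (log2 change 2.86, 95% interval 2.53 to 3.18). Against WT the Pax5+/- level changed by -0.15 (95% interval -0.47 to 0.18). That value turned to 0.155 without WT replicates 1 and 3, and it was -0.45 and past the threshold without WT replicates 2 and 4. Without WT replicates 2 and 4 the Slamf6 change in Pax5+/- also passed, at -0.425.

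Slamf9, a short-tailed receptor known from myeloid and plasmacytoid dendritic cells, was higher in Cd72+/-;Pax5+/- by a much smaller amount. It read 7.14, 7.06, 7.00 and 7.22 in Cd72+/-;Pax5+/-, against 6.83, 6.67, 6.96 and 6.69 in Pax5+/- and 6.63, 6.78, 6.79 and 6.77 in WT. The lowest Cd72+/-;Pax5+/- array, 7.00, stood just above the highest Pax5+/- array, 6.96. The change was 0.36 against WT (SE 0.0722, 1.29-fold) and 0.32 against Pax5+/- (1.25-fold), and Pax5+/- differed from WT by 0.05 (95% interval -0.11 to 0.20). Both Slamf9 calls ended with the closest arrays averaged.

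Cd48, the lipid-anchored ligand of Cd244a and Cd2, separated all 3 groups. It read 8.72, 8.90, 9.13 and 9.37 in Cd72+/-;Pax5+/-, against 6.89, 6.11, 6.58 and 5.97 in Pax5+/- and 8.40, 7.84, 8.44 and 7.86 in WT. No groups overlapped, and the order from high to low was Cd72+/-;Pax5+/-, WT and Pax5+/-. Cd48 was 3.36-fold lower in Pax5+/- than in WT (log2 change -1.75, SE 0.215, 95% interval -2.21 to -1.28) and 6.24-fold higher in Cd72+/-;Pax5+/- than in Pax5+/- (log2 change 2.64, 95% interval 2.18 to 3.11). The smaller difference between Cd72+/-;Pax5+/- and WT, 0.90 (95% interval 0.43 to 1.36), was less stable. Its call ended without replicate 3 or 4 of Cd72+/-;Pax5+/- (0.86 and 0.78), without WT replicate 2 or 4 (0.80 each), without WT replicates 2 and 4 together (0.61) and with the closest arrays averaged (0.90). The call in Pax5+/- against WT also ended with the closest arrays averaged.

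Cd84, a homophilic receptor that recruits SAP, was low in Pax5+/-. It read 8.84, 8.76, 8.93 and 8.93 in Cd72+/-;Pax5+/-, against 6.90, 6.71, 6.67 and 6.48 in Pax5+/- and 9.79, 8.77, 9.87 and 8.82 in WT. The highest Pax5+/- array lay well below every array of the other groups, and the Cd72+/-;Pax5+/- arrays fell at the level of WT replicates 2 and 4. Cd84 was 6.16-fold lower in Pax5+/- than in WT (log2 change -2.62, SE 0.222, 95% interval -3.11 to -2.14) and 4.52-fold higher in Cd72+/-;Pax5+/- than in Pax5+/- (log2 change 2.18, 95% interval 1.69 to 2.66). The second of these calls ended with the closest arrays averaged. Between Cd72+/-;Pax5+/- and WT the change was -0.45 (95% interval -0.93 to 0.04) and depended on the WT pair: it was 0.07 without WT replicates 1 and 3, and -0.97 and past the threshold without WT replicates 2 and 4.

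**Figure D2:**
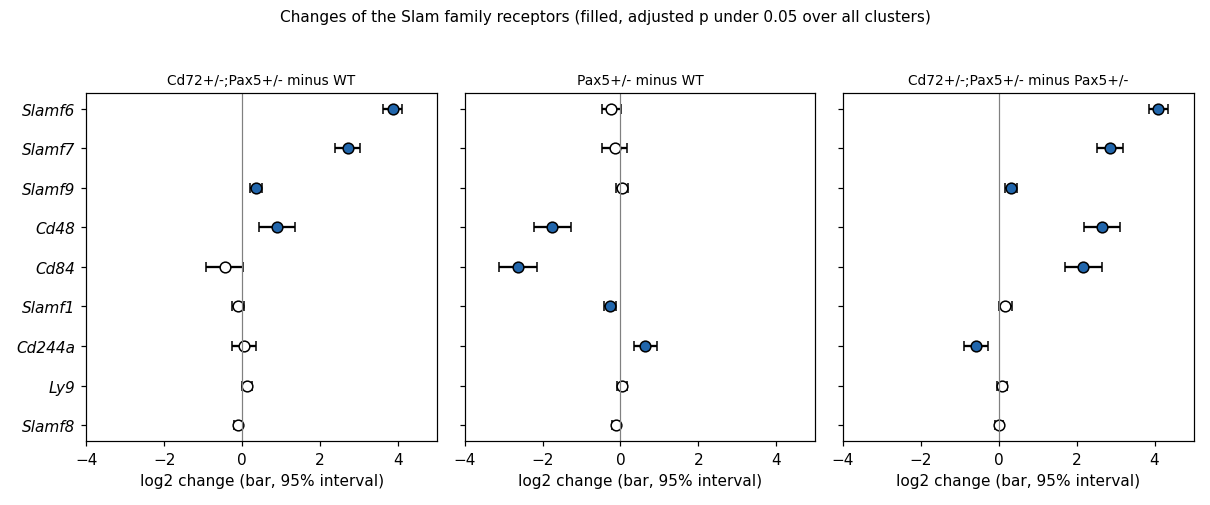
Log2 change of each Slam receptor (x axis) with its 95% interval in Cd72+/-;Pax5+/- minus WT, Pax5+/- minus WT and Cd72+/-;Pax5+/- minus Pax5+/-, with filled points for adjusted p under 0.05. Slamf6 and Slamf7 lie far right in both comparisons of Cd72+/-;Pax5+/-, and Cd48 and Cd84 lie far left in Pax5+/- minus WT.

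Cd244a, the partner of Cd48 on NK cells and other leukocytes, was highest where Cd48 was lowest. It read 8.59, 8.58, 8.74 and 8.67 in Cd72+/-;Pax5+/-, against 9.05, 9.44, 9.15 and 9.31 in Pax5+/- and 8.94, 8.28, 8.84 and 8.32 in WT. The Pax5+/- arrays lay above all others, with WT replicate 1 closest at 8.94, and the Cd72+/-;Pax5+/- arrays fell between the WT pairs. Cd244a was 1.56-fold higher in Pax5+/- than in WT (log2 change 0.64, SE 0.141, 95% interval 0.34 to 0.95), and it changed by -0.59 in Cd72+/-;Pax5+/- against Pax5+/- (95% interval -0.90 to -0.29). Both calls ended with the closest arrays averaged. The call in Pax5+/- against WT also ended with only the compared groups in the fit and without WT replicates 2 and 4, where the change was 0.35, and the other ended without Cd72+/-;Pax5+/- replicate 1 or 2, or Pax5+/- replicate 2 (-0.57, -0.57 and -0.53). Cd72+/-;Pax5+/- differed from WT by 0.05 (95% interval -0.26 to 0.36), with values of 0.345 and past the threshold without WT replicates 1 and 3 and -0.245 without WT replicates 2 and 4.

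Slamf1 (CD150), a homophilic receptor and the marker of blood stem cells, was dim in all groups. It read 5.15, 5.13, 5.11 and 5.15 in Cd72+/-;Pax5+/-, against 5.12, 5.05, 4.91 and 4.80 in Pax5+/- and 5.40, 5.11, 5.26 and 5.18 in WT. These lie below the lower quartile of the arrays, and the Pax5+/- and WT ranges overlapped. The change of -0.27 in Pax5+/- against WT (SE 0.0748, 1.2-fold lower) was called, and the call ended after quantile normalization, with only the compared groups in the fit, with the closest arrays averaged, without WT replicates 1 and 3, and without any 1 of Pax5+/- replicates 2 to 4 or WT replicates 1, 3 and 4, with values from -0.29 to -0.175. Slamf1 changed by -0.10 in Cd72+/-;Pax5+/- against WT and by 0.165 against Pax5+/-, neither called.

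Ly9, a large homophilic receptor of B and T cells, was not called in any comparison. It read 10.11, 10.11, 10.23 and 10.28 in Cd72+/-;Pax5+/-, against 10.16, 9.96, 10.17 and 10.08 in Pax5+/- and 10.06, 10.05, 10.04 and 10.09 in WT. The Cd72+/-;Pax5+/- arrays lay just above the WT arrays, by 0.12 on average (95% interval -0.0018 to 0.25). Slamf8, a short-tailed receptor of macrophages, read 6.07 to 6.13 in Cd72+/-;Pax5+/-, 6.06 to 6.13 in Pax5+/- and 6.14 to 6.32 in WT. Both mutant groups lay just below WT for Slamf8, with changes of -0.115 and -0.12 and no call.

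Genes between and beside the receptors were read in the same comparisons. In their order on chromosome 1 the members run Cd244a, Ly9, Slamf7, Cd48, Slamf1, Cd84 and Slamf6, and then, after 13 other measured genes, Slamf9 and Slamf8. Of the 37 neighbours between and within 10 measured genes of the members, 3 were called higher and 1 lower in Cd72+/-;Pax5+/- against WT, 1 higher and 0 lower in Pax5+/- against WT, and 4 higher and 1 lower in Cd72+/-;Pax5+/- against Pax5+/-. Over all clusters the shares were 4.12% higher and 3.66% lower, 4.28% and 3.2%, and 4.44% and 5.35%, so the counts of neighbours are too small to set apart from the background. Their median absolute change was 0.0625, 0.045 and 0.0525 in these comparisons, and none of them was called with a change over 2-fold. Since the family was chosen for its changes, a smaller median in the neighbours is no result, and Pea15a, Alyref2 and Igsf8 changed from WT by more than Slamf9 did. Vangl2, a planar cell polarity protein and the next measured gene after Slamf6, averaged 8.97 ± 0.102 in Cd72+/-;Pax5+/-, 8.98 ± 0.193 in Pax5+/- and 9.18 ± 0.0387 in WT. Itln1, beside Cd244a, read 4.99, 5.03 and 5.00 on average.

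Among the called neighbours, the immunoglobulin superfamily member Igsf8 rose by 0.46 in Cd72+/-;Pax5+/- against WT (SE 0.0654, adjusted p = 0.000619) and by 0.59 against Pax5+/- (adjusted p = 6.34e-05). Pea15a, a death-effector-domain protein, changed by -0.58 against WT (SE 0.0576, adjusted p = 3.32e-05) and by -0.70 against Pax5+/- (adjusted p = 4.95e-06). The other calls were Alyref2 (0.55 against WT, adjusted p = 0.00349, and 0.37 against Pax5+/-, adjusted p = 0.0321), Pex19 (0.28 against WT, adjusted p = 0.015), Pigm (0.47 against Pax5+/-, adjusted p = 0.0324) and Igsf9 (0.24 against Pax5+/-, adjusted p = 0.0206). In Pax5+/- against WT the call was Nit1 (0.32, adjusted p = 0.0193). With the closest arrays averaged, 1 neighbour was called in Cd72+/-;Pax5+/- against WT, 0 in Pax5+/- against WT and 2 in Cd72+/-;Pax5+/- against Pax5+/-. Most of the calls given here thus ended there. The Nit1 call also ended with only the compared groups in the fit.

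**Figure D3:**
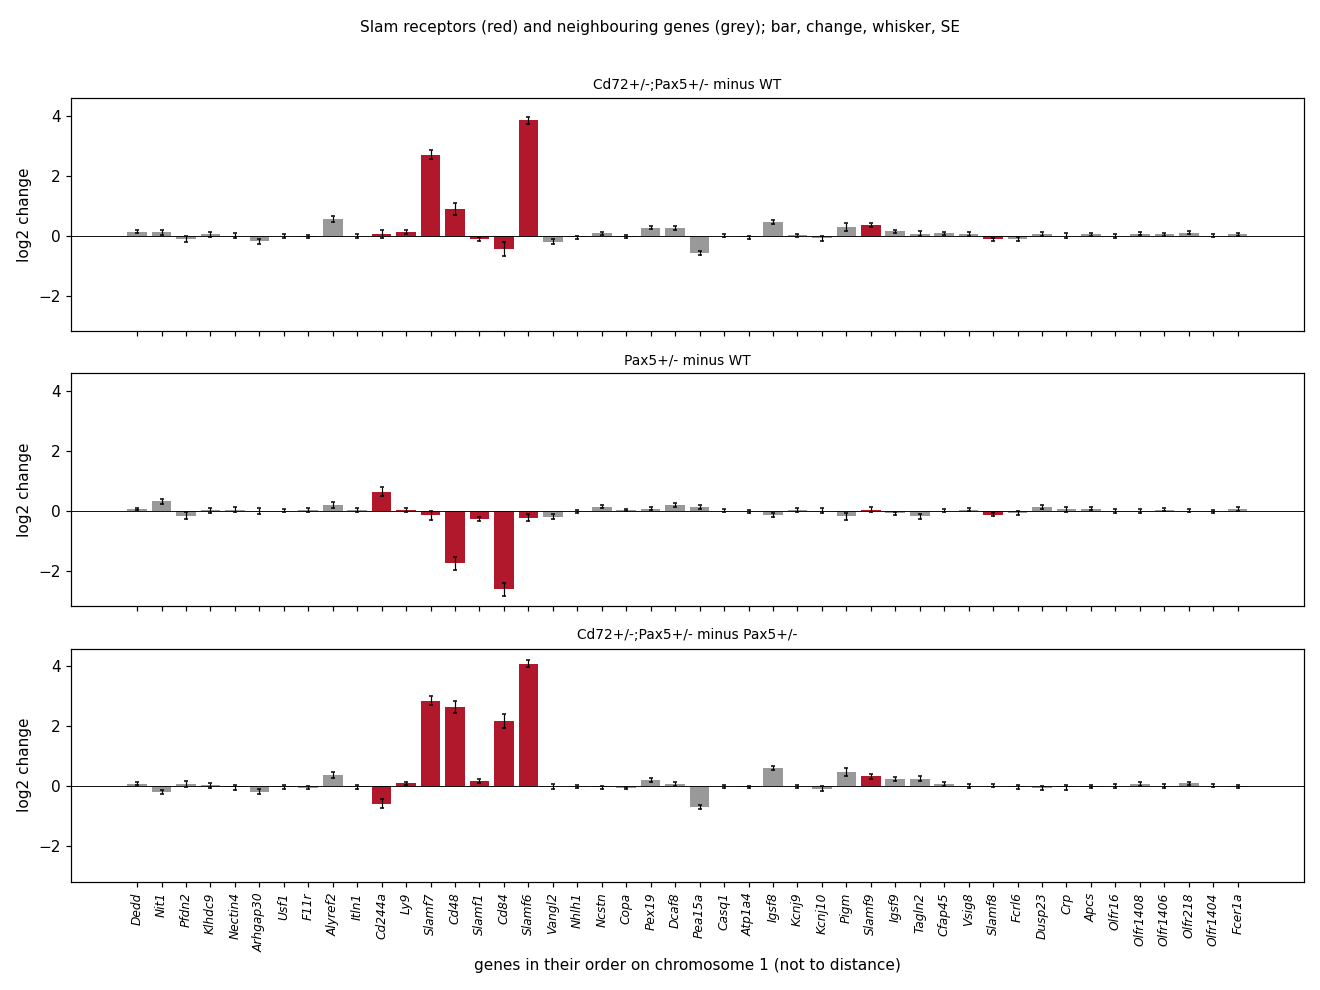
Log2 change (y axis, whisker SE) of the 9 Slam receptors in red and 37 neighbouring genes in grey, in their order on chromosome 1, for the 3 comparisons from top to bottom. Slamf6 reaches 3.86 and 4.10 in the comparisons of Cd72+/-;Pax5+/- and Cd84 reaches -2.62 in Pax5+/- minus WT, while no grey bar passes 1 in size.

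Genes that act below the receptors changed singly. Of 26 genes listed for Slam signalling 23 were measured by a cluster with 1 symbol. Lyn, Lck and Nfkb1 were not, so Fyn was the only Src-family kinase read. In Cd72+/-;Pax5+/- against WT 2 rose and 2 fell, in Pax5+/- against WT 1 rose and 2 fell, and in Cd72+/-;Pax5+/- against Pax5+/- 2 rose and 4 fell, against the shares of all clusters given above. Their median change was near 0 in each (-0.0025, -0.005 and -0.0275, beside 0.0025, -0.005 and 0.005 over all clusters). With the closest arrays averaged, 0 of the 23 were called in either comparison with WT and 1 in Cd72+/-;Pax5+/- against Pax5+/-, so every call of a signalling gene against WT given below ended there.

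The adaptors were dim except for Sh3bp2. Sh2d1a, which encodes SAP, read 5.17 to 5.25 in Cd72+/-;Pax5+/-, 5.16 to 5.30 in Pax5+/- and 5.17 to 5.29 in WT, and Sh2d1b1, which encodes EAT-2, read 4.65 to 4.92, 4.69 to 5.08 and 4.46 to 4.79. Neither was called, and both lay below the lower quartile of the arrays and near the 4.88 to 5.19 that Uty read on the Cd72+/-;Pax5+/- arrays. Sh2d1b2, the close relative of Sh2d1b1 in mice, fell by 0.24 in Cd72+/-;Pax5+/- against Pax5+/- (SE 0.061, adjusted p = 0.0254) within this dim range. Sh3bp2 changed by -0.18 and -0.11 in Cd72+/-;Pax5+/- and Pax5+/- against WT, without a call.

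Fyn, the Src-family kinase that SAP brings to the receptors, read 9.59, 9.57, 9.58 and 9.57 in Cd72+/-;Pax5+/-, against 9.17, 9.34, 9.02 and 9.23 in Pax5+/- and 9.27, 9.23, 9.27 and 9.19 in WT. It rose by 0.34 against WT (SE 0.0594, adjusted p = 0.00313) and by 0.39 against Pax5+/- (adjusted p = 0.000872). Ptpn6, the phosphatase SHP-1, rose by 0.31 in Pax5+/- against WT (SE 0.0487, adjusted p = 0.00125) and changed by -0.34 in Cd72+/-;Pax5+/- against Pax5+/- (adjusted p = 0.000567). The phosphatases Ptpn11 and Inpp5d were not called, nor was Csk.

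Plcg1, a phospholipase C that turns receptor signals into calcium release, followed the order of Cd48. It read 9.76, 9.74, 9.76 and 9.81 in Cd72+/-;Pax5+/-, against 8.16, 8.22, 7.95 and 8.12 in Pax5+/- and 9.63, 8.81, 9.49 and 8.79 in WT. No groups overlapped, and the WT arrays fell into the same pairs as for Cd84. Plcg1 fell by 1.07 in Pax5+/- against WT (SE 0.164, adjusted p = 0.00105), rose by 1.66 in Cd72+/-;Pax5+/- against Pax5+/- (adjusted p = 2.2e-05) and rose by 0.59 against WT (adjusted p = 0.0475). Plcg2, the form that B-cell receptors use, averaged 10.99 ± 0.0737 in Cd72+/-;Pax5+/- and was not called. Prkcq, a protein kinase C of T cells, was lower than in WT in both mutant groups, by a log2 change of -0.42 with both losses (adjusted p = 0.00154) and -0.31 in Pax5+/- (adjusted p = 0.0116), at levels of 5.35 to 6.02 over all arrays. Fyb, an adaptor that binds Fyn, fell by 0.20 against WT and by 0.19 against Pax5+/- (adjusted p = 0.0345 and 0.0348). Fyb was dim, at 5.41 to 5.50 in Cd72+/-;Pax5+/-, 5.59 to 5.73 in Pax5+/- and 5.58 to 5.76 in WT. These levels lie near or below the lower quartile of the arrays. The lipid kinase Pik3c3 fell by 0.22 in Cd72+/-;Pax5+/- against Pax5+/- (adjusted p = 0.0484). Cd2, the other partner of Cd48 in mice, read 5.88 to 6.09 over all arrays and was not called.

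**Figure D4:**
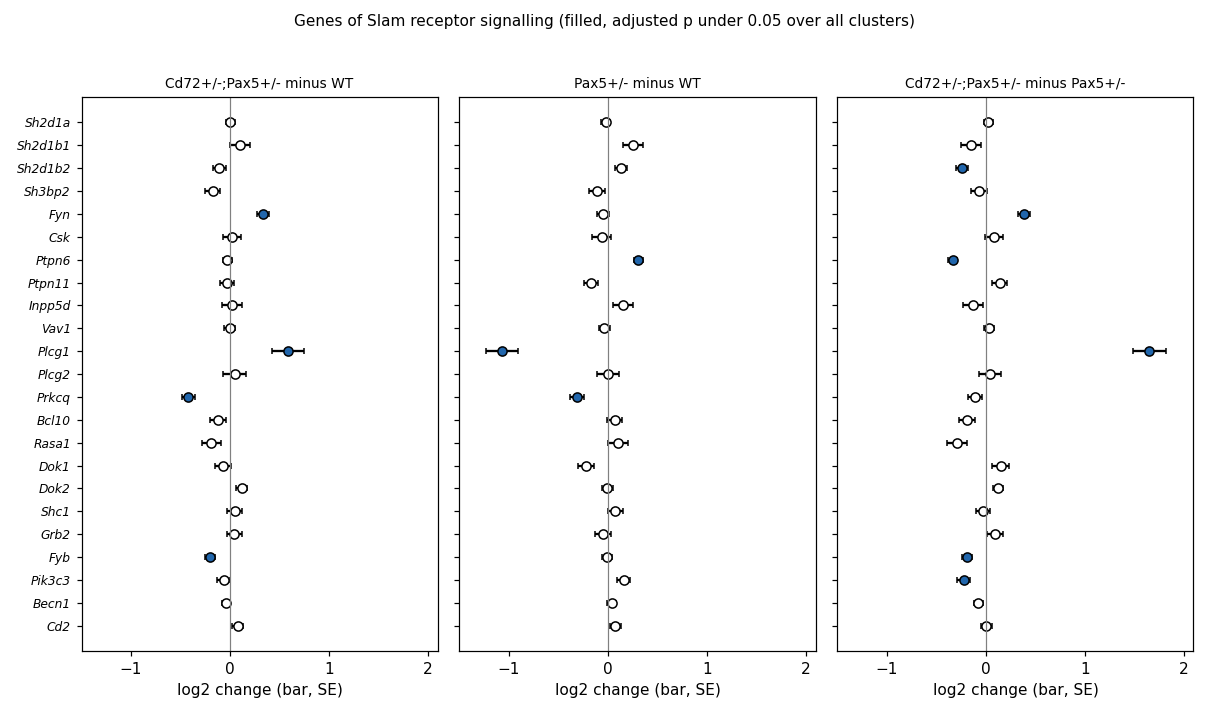
Log2 change (x axis, bar SE) of 23 genes of Slam receptor signalling in the 3 comparisons, with filled points for adjusted p under 0.05. Plcg1 is the one gene past 2-fold, at -1.07 in Pax5+/- minus WT and 1.66 in Cd72+/-;Pax5+/- minus Pax5+/-.

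By root mean square difference over the 12 arrays, each gene centred on its own mean, the genes closest to Slamf6 were the carbonic anhydrase Car13 (0.506 on the log2 scale), Slamf7 (0.591) and Gtpbp10 (0.845). Those closest to Slamf7 were Car13 (0.258), Gtpbp10 (0.457) and the scaffold Dlg2 (0.525). Car13 averaged 8.845 ± 0.13 in Cd72+/-;Pax5+/-, 5.775 ± 0.116 in Pax5+/- and 5.93 ± 0.0911 in WT, so it was high in the same 4 arrays. Closest to Cd48 were Cd44, the hyaluronan receptor (0.272), the lectin-related gene Clec2i (0.301) and Prrg4 (0.435). Cd44 averaged 8.785 ± 0.0733 in Cd72+/-;Pax5+/-, 5.945 ± 0.185 in Pax5+/- and 8.015 ± 0.0436 in WT, the order that Cd48 had. The genes of this paragraph were picked for closeness to the members, so a shared order follows from the choice and is no result.

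Markers of other cells that carry Slam receptors were set beside these values. Calls of markers were not refitted with the closest arrays averaged. Of 9 measured pro-B markers, the mean log2 level was 11.48 to 11.66 in Cd72+/-;Pax5+/-, 11.83 to 11.95 in Pax5+/- and 11.11 to 12.04 in WT, and in WT it was 12.03 and 12.04 in replicates 1 and 3 and 11.13 and 11.11 in replicates 2 and 4. Of these markers 7 had positive changes in Cd72+/-;Pax5+/- minus WT, with a median over the 9 of 0.29. Some of these signs depended on the WT pair. Rag1, Rag2 and Il7r read lower on every Cd72+/-;Pax5+/- array than in WT replicates 1 and 3. They read higher there than in WT replicates 2 and 4. The list mean of every Cd72+/-;Pax5+/- array likewise lay between those of the WT pairs. Ebf1, a B-lineage transcription factor, was called higher than in WT with both losses (0.25, adjusted p = 0.0326) and in Pax5+/- (0.315, adjusted p = 0.00816), and Cd93, a receptor of early B cells, was called higher in Pax5+/- than in WT (1.27, adjusted p = 0.00026). Cd79a was called lower in Pax5+/- than in WT (-0.33, adjusted p = 0.00538). Dntt, the polymerase of pro-B cells, was lower in the mice with both losses than in WT (log2 change -2.34, adjusted p = 0.00515) and in Pax5+/- (-2.12, adjusted p = 0.00809). It read 11.93, 9.76, 11.92 and 9.82 in WT replicates 1 to 4. None of 5 T-cell, 5 NK-cell, 6 monocyte and macrophage, 6 granulocyte, 4 megakaryocyte, 5 basophil and mast cell or 4 endothelial markers was called in any of the 3 comparisons. Several of them read below the lower quartile of the arrays, where the lack of a call says little. At the shares of all clusters given above, few calls would be expected in any marker list this short. The mean of the NK-cell markers was 5.58 to 5.68 in Cd72+/-;Pax5+/-, 5.50 to 5.65 in Pax5+/- and 5.48 to 5.85 in WT. That of the T-cell markers was 5.90 to 6.08, 5.95 to 6.06 and 5.98 to 6.05, and that of the monocyte and macrophage markers 6.12 to 6.20, 5.93 to 6.05 and 5.95 to 6.24. The groups overlapped in the T-cell and NK-cell means. The monocyte and macrophage mean was higher on every Cd72+/-;Pax5+/- array than on any Pax5+/- array, and WT overlapped both. Lyz2 of that list read 8.16 to 8.80 in Cd72+/-;Pax5+/- and 7.24 to 7.80 in Pax5+/-. In WT replicates 1 to 4 Lyz2 read 8.75, 7.17, 8.94 and 7.23, and the NK-cell marker Klrd1 read 6.97, 5.49, 7.35 and 5.83.

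Of 6 plasma cell markers 1 was called higher in Cd72+/-;Pax5+/- against WT (Irf4, 0.44, adjusted p = 0.00435), and 1 higher and 2 lower against Pax5+/-, Sdc1 among them at -0.77 (adjusted p = 2.72e-05). In Pax5+/- against WT 2 were called higher, Sdc1 (0.64, adjusted p = 0.000166) and Irf4 (0.55, adjusted p = 0.000803), and 2 lower, Xbp1 (-1.06, adjusted p = 0.0101) and Mzb1 (-0.495, adjusted p = 0.0235). Their mean was 7.93 to 7.995 in Cd72+/-;Pax5+/-, 7.92 to 8.215 in Pax5+/- and 7.97 to 8.10 in WT. Xbp1 read 9.70, 10.71, 9.74 and 10.68 in WT replicates 1 to 4, so it too differed between the WT pairs. Of 7 stem and progenitor markers Meis1 alone was called, lower than in WT by a change of -0.83 with both losses and -0.67 in Pax5+/- (adjusted p = 9.22e-06 and 5.7e-05). Of 5 plasmacytoid dendritic cell markers Cox6a2 was called higher in both comparisons with WT and Bst2 was called lower in Pax5+/- against WT and higher in Cd72+/-;Pax5+/- against Pax5+/-. Ccr9 ran the opposite way, called higher in Pax5+/- than in WT (0.51, adjusted p = 0.0443) and lower with both losses than in Pax5+/- (-0.66, adjusted p = 0.00863). It read 6.32, 5.60, 6.25 and 5.72 in WT replicates 1 to 4. Of 4 mature B-cell markers Cd22 was called higher than in WT with both losses (0.86, adjusted p = 1.16e-06) and in Pax5+/- (0.39, adjusted p = 0.000918), and of 4 erythroid markers Aqp1 was called, at 1.245 with both losses (adjusted p = 6.48e-06) and -0.55 in Pax5+/- (adjusted p = 0.00463).

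The mean of 5 stromal markers moved with the pairs of arrays and with a group. It was 7.01 to 7.47 in Cd72+/-;Pax5+/-, 9.02, 7.55, 9.12 and 7.56 in Pax5+/- replicates 1 to 4, and 8.97, 8.12, 8.94 and 8.12 in WT replicates 1 to 4. Called lower in Cd72+/-;Pax5+/- against WT were 2 of them, Cxcl12 at -1.92 (adjusted p = 0.0141) and Sparc at -1.97 (adjusted p = 0.0408). Cxcl12 was also called lower in Cd72+/-;Pax5+/- against Pax5+/- (-1.58, adjusted p = 0.0328). Cd48 was higher in replicates 1 and 3 than in replicates 2 and 4 both in Pax5+/- (by 0.695) and in WT (by 0.57), as the stromal mean was, whereas Cd84 differed by 0.19 between the Pax5+/- pairs and by 1.035 between the WT pairs. Slamf7, Cd244a and Slamf6 differed by -0.25, -0.275 and -0.04 between these Pax5+/- pairs, against 0.605, 0.59 and 0.38 in WT. Across the groups, Cd48 was highest in Cd72+/-;Pax5+/-, where the stromal mean was lowest. The part of these markers in the members' values was not tested.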

How the data were processed

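RNA of 12 samples was hybridised to Affymetrix Mouse Gene 1.0 ST arrays. Per the labels and series text, the authors extracted it with TRIzol and columns and used Transcriptome Analysis Console 4.0.3 for all array analyses. The deposited values are log2 signals per transcript cluster (3.67 to 14.73). Of background correction, normalization, summarization and build, the sources used here say nothing. RefSeq (GRCm38.p6) gave gene order and promoters.

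Groups came from the source names. Of 28944 clusters the 23410 with a gene symbol were tested, without a filter or further normalization, with 1 mean fitted for each genotype (limma 3.58.1, R 4.3.3, 9 residual and 3.28 prior degrees of freedom). A call is an adjusted p under 0.05 (Benjamini-Hochberg, over all of them). SEs and 95% intervals are those of limma, and SDs are over 4 arrays. The number of arrays limits the precision. Figures were drawn with matplotlib 3.10.9. The fit was tested on simulated data with independent noise on each array. That test cannot speak to p-values from arrays that stand in pairs.

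The members and lists were chosen with earlier results of these data known. The text names all members, called signalling genes and neighbours, up to 4 bright uncalled signalling genes, up to 2 called markers a list, the 3 genes closest to each of the 3 members with the widest range, and Pax5, Cd72, Xist and Uty. Vangl2, Itln1, Sh2d1a, Sh2d1b1, Sh3bp2, Cd2, Ptpn11, Lyz2, Klrd1 and further called markers of the pro-B, plasma cell and plasmacytoid dendritic cell lists were named after their values were seen. So were the uncalled pro-B markers Rag1, Rag2 and Il7r. Alternatives were quantile normalization, a filter on dim clusters (mean under 6), limma's robust prior with an intensity trend, a fit of the compared groups alone, the closest arrays averaged, thresholds with a change over 2-fold, omission of each array and, chosen after the data were seen, of each WT pair.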

Additional observations from a re-analysis of the deposited data

Results flagged for a closer look

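In 96 groups of 4 arrays (the 9 receptors and 23 signalling genes in 3 groups each), 2 held an array far from the others by Dixon's criterion. Chance gives about 1 in 20 groups where the 4 arrays are independent. Arrays that stand in pairs need not follow that rate, so nothing is drawn from the count. Slamf9 read 6.63 in WT replicate 1, against 6.77 to 6.79 on the other WT arrays. Sh2d1a read 5.30 in Pax5+/- replicate 4, against 5.16 and 5.17 on the other Pax5+/- arrays. The gaps were 0.14 and 0.13 on the log2 scale.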

How the results depend on the processing

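No paired analysis was possible because the titles number the samples without a break over all groups. Counts are given in the order Cd72+/-;Pax5+/- against WT, Pax5+/- against WT, Cd72+/-;Pax5+/- against Pax5+/-. Called were 4, 4 and 6 members, 4, 3 and 6 signalling genes, 4, 1 and 5 neighbours and 1821, 1749 and 2292 clusters. With the closest arrays averaged, which leaves 2 values a group, these became 2, 1 and 3 members (Slamf6 and Slamf7 in both comparisons of Cd72+/-;Pax5+/-, with Cd48 against Pax5+/-, and Cd84 in Pax5+/- against WT), 0, 0 and 1 signalling genes, 1, 0 and 2 neighbours and 290, 282 and 420 clusters. At the study's stated threshold (p under 0.05 without adjustment, over 2-fold) they were 2, 2 and 4 members, 0, 1 and 1 signalling genes, 0 neighbours in each and 214, 224 and 280 clusters. With the adjusted p the same fold gave the same counts of members, signalling genes and neighbours, and 197, 220 and 263 clusters. The dim filter left 2 signalling genes in Cd72+/-;Pax5+/- against WT, and only the compared groups left 2 members and 0 neighbours in Pax5+/- against WT. Omission of 1 array gave 3 to 4, 3 to 4 and 5 to 6 members, 2 to 4, 3 to 5 and 3 to 5 signalling genes, 3 to 5, 0 to 2 and 2 to 6 neighbours, and 1257 to 1774, 1338 to 1959 and 1667 to 2331 clusters. Signs turned in uncalled values only: Slamf8 against Pax5+/- without Cd72+/-;Pax5+/- replicate 1 (-0.0033) or Pax5+/- replicate 4 (-0.0025), Slamf9 in Pax5+/- against WT without Pax5+/- replicate 3 (-0.0125), Cd244a in Cd72+/-;Pax5+/- against WT without WT replicate 2 (-0.055), WT replicate 4 (-0.04) or WT replicates 2 and 4 (-0.245), and without WT replicates 1 and 3 Cd84 in Cd72+/-;Pax5+/- (0.07) and Slamf7 in Pax5+/- (0.155). Over the omissions of 1 array these ranged from -0.0033 to 0.0208 (Slamf8), -0.0125 to 0.0842 (Slamf9) and -0.055 to 0.165 (Cd244a). The causes were not tested.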
